A study of Mus musculus with 6 samples.

Results

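The 10 genes described here code for sensors of bacterial and viral material, their adaptors and genes linked to interferon (Nod1, Nod2, Ripk2, Ubd, Trim34a, Trim25, Ifih1, Mavs, Tlr3 and Irf3), and they were taken by gene symbol from the 23412 genes of the RNA-seq table. Nod1, Ubd and Trim34a were selected on their normalized counts, which were higher in HN mESCs, so their difference between the lines is a description and carries no test. The libraries came from 2 lines of undifferentiated mouse embryonic stem cells (mESCs) of strain 129Sv. R1 mESCs were wild type, and HN mESCs were Htt-/-, with the promoter and exon 1 of both Htt alleles deleted. Each line gave 3 libraries, 1 on each of 3 collection dates shared by the lines, so that R1 and HN libraries with the same replicate number form a pair. Both lines were grown without feeder cells in medium with serum, leukemia inhibitory factor and inhibitors of the FGF and VEGF receptors, MEK and GSK3. Each genotype is represented by 1 cell line, so the genotype and other differences between R1 and HN cannot be told apart.

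NOD1 and NOD2 are cytosolic receptors for fragments of the bacterial cell wall and signal through the kinase RIPK2 to NF-kB. TLR3 in endosomes and MDA5, the product of Ifih1, in the cytosol detect double-stranded RNA, and MDA5 and RIG-I signal through the mitochondrial adaptor MAVS to the transcription factor IRF3, which switches on type I interferon genes. Ubd encodes the ubiquitin-like modifier FAT10 and Trim34a a member of the TRIM family, and both are known as genes that cytokines can induce. Pluripotent stem cells are known for a weak interferon response compared with differentiated cells.

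The sequences before the starts of the 3 genes chosen for their difference are shown so that the letters searched for below can be seen in place. They are the RefSeq windows on GRCm38.p6 that run from 250 bases before to 50 bases after the gene start, printed on the strand of the gene, with capitals for a match to one of 3 motifs. These are the core of the interferon-stimulated response element (GAAANNGAA), the gamma-activated site (TTCNNNGAA) and a kappa B site (GGNNTTTCC), each searched on both strands with N for any base. The windows lie at chr6:54972563-54972862 on the minus strand for Nod1, at chr17:37193642-37193941 on the plus strand for Ubd and at chr7:104244207-104244506 on the plus strand for Trim34a.
Nod1: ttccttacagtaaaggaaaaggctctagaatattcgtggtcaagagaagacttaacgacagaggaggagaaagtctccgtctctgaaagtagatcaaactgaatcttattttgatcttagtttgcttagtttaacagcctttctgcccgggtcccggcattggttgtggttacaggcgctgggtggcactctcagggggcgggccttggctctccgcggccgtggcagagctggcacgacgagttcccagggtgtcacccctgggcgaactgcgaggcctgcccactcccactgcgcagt
Ubd: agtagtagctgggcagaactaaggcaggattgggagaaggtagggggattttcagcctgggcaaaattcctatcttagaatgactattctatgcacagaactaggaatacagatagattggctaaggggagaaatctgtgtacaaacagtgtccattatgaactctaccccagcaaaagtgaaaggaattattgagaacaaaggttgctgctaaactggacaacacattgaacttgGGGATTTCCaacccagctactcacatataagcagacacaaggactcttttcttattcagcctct
Trim34a: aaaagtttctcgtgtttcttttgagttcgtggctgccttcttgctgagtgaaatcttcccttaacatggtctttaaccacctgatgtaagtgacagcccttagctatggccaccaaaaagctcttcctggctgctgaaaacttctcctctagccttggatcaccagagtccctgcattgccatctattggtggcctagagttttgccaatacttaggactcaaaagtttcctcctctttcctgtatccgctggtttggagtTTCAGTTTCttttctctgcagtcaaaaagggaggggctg

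In the Ubd window the capitals mark GGGATTTCC, a kappa B match 14 bases before the start, and in the Trim34a window they mark TTCAGTTTC, the interferon-stimulated response element read on the other strand, 11 bases after the start. The Nod1 window held no match to the 3 motifs, and a second RefSeq window of Nod1 (chr6:54971612-54971911) held the gamma-activated site TTCCAGGAA 193 bases before its start. RefSeq windows were found for 9 of the 10 genes, 10 windows in all. The response element was found for 3 of these genes, Trim34a, Trim25 and Ifih1, and the kappa B site for 4, Ubd, Nod2, Tlr3 and Irf3. Among all 32851 windows, 8.56% held the response element, 8.3% the gamma-activated site and 5.82% the kappa B site. The counts are per gene and the shares per window. The short forms of the response element and the kappa B site were chosen after longer forms had found fewer matches. The counts and the shares are thus not compared. No 2 matches in these windows overlapped. A match shows letters in a window and not a site in use.

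The library totals ranged from 1640391 to 3866717 reads on genes, and values are given as normalized counts, which are reads divided by a size factor for the library. Htt, whose deletion separates the lines, measured 229 ± 29.0 (SD, n = 3) in R1 and 43.5 ± 22.0 in HN mESCs, a log2 difference of -2.52 (limma adjusted p = 0.0141), with between 15 and 82 reads still present in each HN library. The 8 markers of embryonic stem cells summed to 11306 to 15335 in R1 and 13016 to 17533 in HN libraries. The sum holds log2 differences from -1.06 to 0.56. In limma with the collection date as a block, 4 of the 8 passed as higher and 2 as lower in HN mESCs. Over all tested genes 9.48% passed with that block, and without it 0 of the 8 passed. All 10 immune cell markers together summed to 116 to 195 in R1 and 265 to 360 in HN libraries, which did not overlap. That gap came with Cd68, a lysosomal membrane protein of macrophages, at 82.1 ± 10.5 in R1 and 251 ± 38.8 in HN mESCs (log2 difference 1.60, SE 0.21, adjusted p = 0.00752). Without Cd68 the other 9 summed to 45.8 to 105 in R1 and 48.2 to 70.4 in HN libraries, and Lyz2 and Tyrobp had 3 reads or fewer in every library. Fibroblast markers summed to 42.9 to 123 in R1 and 19.8 to 80.1 in HN libraries, and markers of primitive endoderm to 36.2 to 152 and 34.0 to 135. In bulk RNA, a change in the number of cells of one kind and a change in the RNA per cell cannot be told apart, and the part of other cells in the results below was not tested.

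**Figure D1:**
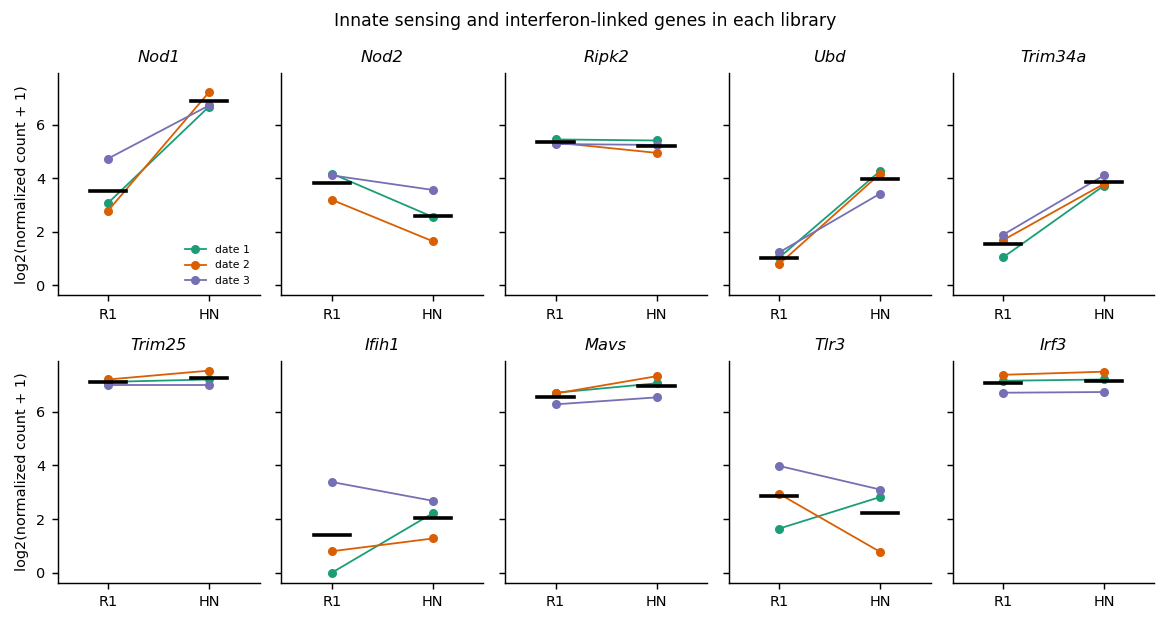
Each panel plots 1 gene as log2(normalized count + 1) in the 3 R1 and the 3 HN libraries, with lines joining libraries of the same collection date and black bars at the mean of each line. Nod1, Ubd and Trim34a are higher in each HN library than in any R1 library, while the libraries of the lines overlap for the other 7 genes.

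Nod1 had the highest level in HN mESCs among the 3 genes chosen for their difference. Nod1 spans bases 54923949 to 54972612 of chromosome 6 (GRCm38), on the minus strand. Its normalized counts were 7.45, 5.92 and 25.6 in R1 libraries 1 to 3 and 101, 147 and 104 in the HN libraries. Every HN library thus stood above every R1 library, and R1 replicate 3 was the highest of its line. The means were 13.0 ± 11.0 (SD, n = 3) in R1 and 117 ± 25.6 in HN mESCs, 9.02 times as high. Without R1 replicate 3 the R1 mean was 6.68, the fold of the means 17.5 and the log2 difference 3.93. That was the highest log2 difference with 1 library left out, and the lowest was 2.96, without R1 replicate 2. On the scale of log2(normalized count + 1), on which all differences below are given, the difference was 3.33 (SE 0.45), and the pairs of the same date differed by 3.59, 4.42 and 1.98. The R1 libraries held 34 Nod1 reads together and the HN libraries 386. Nod1 ranked 3 among the 14276 genes tested by the size of a positive difference. It was chosen by that difference, so the rank is a description.

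Ubd spans bases 37193892 to 37196095 of chromosome 17, plus strand, and codes for FAT10, which marks proteins for the proteasome. Each R1 library held 1 Ubd read, and the HN libraries held 15, 24 and 9. In normalized counts these were 1.06, 0.74 and 1.35 in R1 and 18.3, 17.0 and 9.75 in HN mESCs. The HN libraries were all higher, with the lowest of them in replicate 3. The means were 1.05 ± 0.304 in R1 and 15.0 ± 4.59 in HN mESCs. With 3 reads against 48, the ratio of the summed reads scaled by library was 15.4, with an exact 95% interval of 4.96 to 77.2 that covers counting error only and, since the gene was chosen for being higher in HN, is no test. The log2 difference of 2.93 (SE 0.81) and the pair differences of 3.22, 3.37 and 2.19 depend on the pseudocount at this level, and the difference was 1.16 with a pseudocount of 10. Ubd ranked 7 by the size of a positive difference, the value it was chosen by, so the rank is a description.

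Trim34a spans bases 104244457 to 104262234 of chromosome 7, plus strand, in a cluster of TRIM genes. It was counted at 1, 3 and 2 reads in the R1 libraries and at 10, 18 and 15 reads in the HN libraries. The normalized counts were 1.06, 2.22 and 2.70 in R1 and 12.2, 12.8 and 16.2 in HN mESCs, so that the HN libraries all stood above the R1 libraries. The means were 1.99 ± 0.839 and 13.7 ± 2.20, the log2 difference was 2.33 (SE 0.73), and the pairs differed by 2.67, 2.10 and 2.22. The ratio of scaled reads was 6.89, from 6 and 43 reads. With a pseudocount of 10 the difference was 0.98. Trim34a ranked 14 by the size of a positive difference, the value it was chosen by, so the rank is a description.

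The count of Trim34a is uncertain because 59.7% of its stretches of 50 bases also occur in transcripts of other genes, 39.8% in those of its neighbour Trim34b. On the other strand the gene Gm47248 overlaps 609 of its 2592 exon bases, and the counting is not stated to use strand. Trim34b, on chromosome 7 from 104329471 to 104336909, had 2.13, 7.40 and 1.35 normalized counts in R1 and 1.22, 1.42 and 1.08 in HN libraries. Its highest value was thus that of R1 replicate 2, and the other libraries of both lines lay close together. When the reads of Trim34a and Trim34b were summed, the values were 3.19, 9.62 and 4.04 in R1 and 13.4, 14.2 and 17.3 in HN libraries. The summed HN libraries lay above those of R1, at 15.0 ± 2.09 against 5.62 ± 3.49, a ratio of scaled reads of 2.38. Since 43 of the 47 summed HN reads are those of Trim34a, which chose the gene, this too is a description. Trim12a of the same cluster, chosen after its values were seen and under the limit for testing, had 0 reads in each R1 library and 5, 4 and 4 reads in the HN libraries. Its mean of 4.42 ± 1.63 in HN mESCs was at least 1.4-fold higher than R1 if 3 reads per library are taken as the limit of R1.

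All HN libraries lay above all R1 libraries for 3 of the 10 genes, those chosen for this, and below them for 0. Over all tested genes the shares were 5.23% above and 5.54% below. Ubd and Trim34a reached the mean of 5 normalized counts needed for testing only through the HN libraries.

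**Figure D2:**
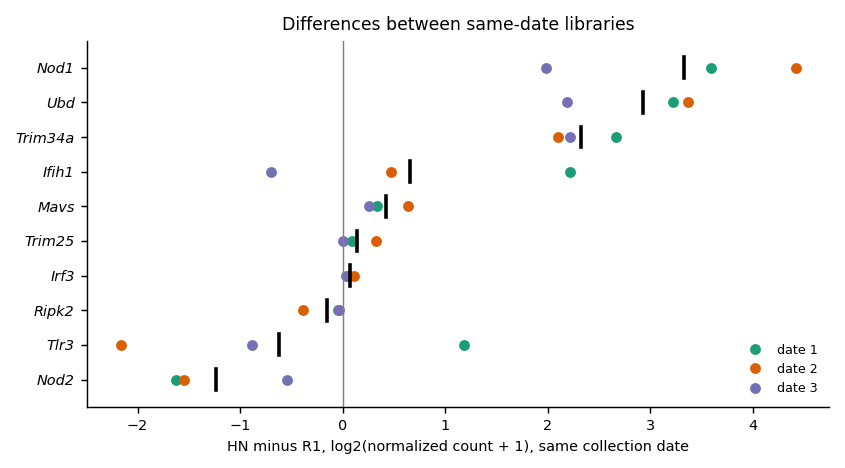
Points give HN minus R1 in log2(normalized count + 1) for each pair of libraries of the same collection date, and black bars the mean of the pairs, for the 10 genes in order of that mean. Nod1, Ubd and Trim34a lie between 1.98 and 4.42 in every pair, while Tlr3 and Ifih1 have pairs on both sides of 0.

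Of the 7 genes not chosen for their difference, 6 were tested and 0 passed at an adjusted p under 0.05 with limma or edgeR, and 0 had an unadjusted limma p under 0.05. DESeq2 gave an adjusted p for 4 of the 6 (none for Nod2 and Tlr3), of which 0 passed. Over all genes 0.119% passed higher and 0.126% lower in HN mESCs. With the collection date as a block, limma passed 5.46% of all genes as higher and 4.02% as lower (0.911% and 1.04% with a log2 difference above 1 as well). With the block limma passed 0 of the 6 and edgeR 1, Mavs. The share of all genes that edgeR passed with the block is not given here, so the pass of Mavs has no background beside it.

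Nod2 (chromosome 8, bases 88647315 to 88688474, plus strand) is the receptor most like NOD1. Its normalized counts were 17.0, 8.14 and 16.2 in R1 and 4.87, 2.13 and 10.8 in HN libraries. HN was lower within each pair, by a log2 of -1.62, -1.55 and -0.54, although the highest HN library exceeded the lowest of R1. The means were 13.8 ± 4.91 and 5.94 ± 4.45 (log2 difference -1.23, 95% confidence interval -2.70 to 0.23, adjusted p = 0.991, and 0.0856 with the block). The reads behind them ranged from 11 to 16 in R1 and from 3 to 10 in HN libraries.

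Ripk2 (chromosome 4, bases 16122733 to 16163647, minus strand) encodes the kinase that both NOD receptors recruit. It was counted at 42.6, 39.2 and 37.7 in R1 and at 41.4, 29.8 and 36.8 in HN libraries. These overlapped, with the lowest value in HN replicate 2. The log2 difference of -0.15 (95% confidence interval -0.75 to 0.44, adjusted p = 1) leaves room for a difference of either sign. With the block the SE was 0.22 in place of 0.27, and the limma adjusted p was 0.77.

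Mavs (chromosome 2, bases 131234063 to 131248025, plus strand) is the adaptor of the RNA sensors RIG-I and MDA5. Its normalized counts were 104, 102 and 76.8 in R1 and 133, 160 and 92.1 in HN libraries. HN was the higher library in 3 of 3 pairs, by 0.34, 0.64 and 0.26, but the lines overlapped because replicate 3 was the lowest in each. The log2 difference was 0.42 (SE 0.25, 95% confidence interval -0.14 to 0.97, adjusted p = 1). With the block the adjusted p was 0.0689, and edgeR with the block gave 0.46 with an adjusted p of 0.0271. Without the libraries of the third date, limma with the block gave 0.49 and an adjusted p of 0.0308, in a fit that passed 11.8% of all tested genes.

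Ifih1 (chromosome 2, bases 62595798 to 62646255, minus strand) encodes MDA5. It was counted at 0, 1 and 7 reads in R1 and at 3, 2 and 5 reads in HN libraries, or 3.39 ± 5.25 and 3.49 ± 2.00 normalized counts. The highest library was R1 replicate 3, and the mean of 3.44 over all libraries was too low for the test. Without that limit the log2 difference was 0.66 (SE 0.89, limma adjusted p = 1).

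Tlr3, an endosomal receptor for double-stranded RNA, spans bases 45395665 to 45411080 of chromosome 8, minus strand, and 7.32% of its exon bases overlap Gm45542 on the other strand. It had 2.13, 6.66 and 14.8 normalized counts in R1 and 6.08, 0.709 and 7.58 in HN libraries. The pairs went both ways, with 1.18 on the first date and -2.16 and -0.88 on the others. The log2 difference was -0.62 (95% confidence interval -2.73 to 1.49, adjusted p = 1), an interval that spans large differences in either direction. With the block the SE was 0.62 in place of 0.97, and the limma adjusted p was 0.629.

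Trim25 (chromosome 11, bases 88999376 to 89020293, plus strand) encodes a ubiquitin ligase known to act on RIG-I. Its values were 138, 147 and 128 in R1 and 147, 185 and 128 in HN libraries, which overlapped. HN replicate 2 stood above the rest, and the difference was 0.14 (95% confidence interval -0.33 to 0.60, adjusted p = 1). With the block the SE was 0.13 in place of 0.21, and the limma adjusted p was 0.619.

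Irf3, the transcription factor at the end of these RNA sensing routes, spans bases 44997648 to 45002848 of chromosome 7, plus strand, and 2.56% of its exon bases overlap Bcl2l12 on the other strand. Its values were 142, 166 and 104 in R1 and 147, 180 and 106 in HN libraries. Within a date the lines lay close together, with pair differences of 0.06, 0.11 and 0.03, and the third date was the lowest in both lines. The difference was 0.07 (95% confidence interval -0.50 to 0.63, adjusted p = 1), in the fit without the block. With the block the SE was 0.13 in place of 0.26, and the limma adjusted p was 0.842.

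Per kb of exon, the order of the levels in R1 mESCs began with Irf3 at 39.9 ± 9.17 normalized counts per kb (SD, n = 3), Mavs at 28.2 ± 4.57 and Trim25 at 24.0 ± 1.67, neighbours whose libraries overlapped. Ripk2 followed at 14.1 ± 0.882, apart from Trim25 above it and from Nod2 below it. The remaining 6 genes, from Nod2 at 2.75 ± 0.979 and Nod1 at 2.56 ± 2.16 down to Ifih1 at 0.415 ± 0.643, each overlapped with the next in order. In HN mESCs Irf3 (42.0 ± 10.8), Mavs (38.4 ± 10.2) and Trim25 (26.6 ± 5.06) were again the highest, and Nod1 at 23.1 ± 5.04 stood next to Trim25, whose libraries it overlapped. Ubd at 16.1 ± 4.93 overlapped with Ripk2 at 12.8 ± 2.08, and Trim34a at 5.29 ± 0.850 was apart from Ripk2 above and from Nod2 at 1.18 ± 0.888 below. Tlr3 at 0.920 ± 0.694 and Ifih1 at 0.428 ± 0.245 were the lowest.

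The collection dates were compared next, because this contrast was not used to choose the genes. In the limma F test of the date terms, 2 of the 7 tested genes other than Ubd and Trim34a passed, Irf3 (adjusted p = 0.00226) and Mavs (adjusted p = 0.0156), against 46% of all tested genes (27% lower and 19.1% higher on the third date). The third date minus the mean of the earlier dates was -0.59 for Irf3 and -0.54 for Mavs. Irf3 passed in 11 of 13 alternatives, and not with DESeq2 (0.118) or without HN replicate 2 (0.0584). Mavs passed in 9 of 13, and not with DESeq2 (0.308), with median centring (0.0747) or without HN replicate 2 (0.174) or HN replicate 3 (0.166). Nod1 did not pass (adjusted p = 0.0837), but did in 6 of 13 alternatives, with values from 7.56e-05 without HN replicate 3 to 0.783 without R1 replicate 3. Tlr3 and Nod2, at adjusted p-values of 0.131 and 0.0905, passed without HN replicate 1, at 0.0034 and 0.021, and Tlr3 also without R1 replicate 1, at 0.0179. Ripk2 (0.646) and Trim25 (0.153) did not pass. Ubd and Trim34a, admitted only through the HN libraries, are left out of this count.

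The date difference went with the level of the gene among tested genes with a mean of 5 to 200 normalized counts. Among the 1989 tested genes with a mean of 5 to 10 normalized counts, the median was 1.30 and 88.6% were higher on the third date. It was 0.30 from 10 to 50, -0.21 from 50 to 100 and -0.28 from 100 to 200 normalized counts. The members fell on both sides of these medians. From 100 to 200, where 51.7% of the genes passed the date test, the value was -0.59 for Irf3, -0.54 for Mavs and -0.26 for Trim25. In the range of 5 to 10 the value was 1.5 for Tlr3 and 0.94 for Nod2. Trim34a (0.44) and Ubd (-0.24) reached that range only through the HN libraries and are not set against its median. Nod1, in the range of 50 to 100 through its HN libraries, was at 0.79 against the negative median of that range. Its means were 13.0 in R1 and 117 in HN mESCs. The value of 0.79 went with R1 replicate 3, at 25.6 normalized counts against 7.45 and 5.92. HN replicate 3, at 104, lay between the other HN libraries at 101 and 147. The third-date libraries also detected the most genes, 20675 in R1 and 20542 in HN, against 18133 to 19083 in the others. Each date held 1 library of each line.

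**Figure D3:**
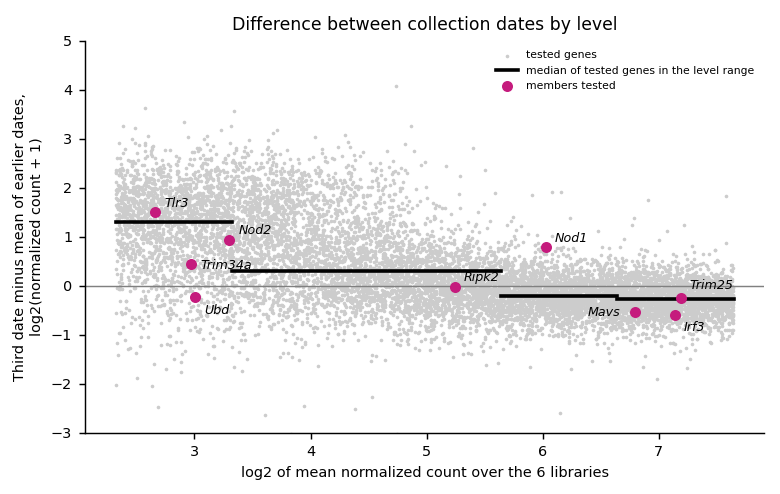
Each point is a tested gene, with log2 of its mean normalized count over the 6 libraries on the x axis and the third date minus the mean of the earlier dates, in log2(normalized count + 1), on the y axis. Black bars are medians of genes in ranges of mean level and fall from 1.30 to -0.28, and the 9 tested members are marked by name, with Irf3 and Mavs below 0 and Tlr3 at 1.5.

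Partners of the members were then described through 9 lists of genes, 177 of which were in the table and 129 tested. Without the block 0 of the 129 passed with limma (10 had an unadjusted p under 0.05, against 843 of all 14276 genes), and edgeR and DESeq2 each passed 1, Relb, with an adjusted p from DESeq2 for 103 of the 129. With the block 16 passed, 12 higher and 4 lower in HN mESCs. This was 12.4% of the 129, against 9.48% of all tested genes, and the medians were -0.03 and -0.01. With edgeR and the block, 11 of the 129 passed as higher and 6 as lower, with no share over all genes given here. Without the third date limma with the block passed 9 higher and 7 lower, in a fit of 4 libraries with 1 residual degree of freedom per gene before moderation. These were 12.4% of the 129, against 11.8% of all tested genes in that fit. Genes that passed without exceeding a log2 difference of 1 were named after their values were seen.

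Among the partners of NOD1, NOD2 and RIPK2, 3 of 21 rose with the block and 0 fell (median -0.03). Xiap, a ubiquitin ligase that acts on RIPK2, was at 158 ± 35.3 in R1 and 243 ± 66.3 in HN mESCs, higher in every pair (0.72, 0.57 and 0.52, block adjusted p = 7.34e-04, and 0.797 without it). The other passes were Rnf31 (0.52, adjusted p = 0.0483) and Sharpin (0.50, adjusted p = 0.0252), which belong to the complex that builds linear ubiquitin chains. Sharpin did not pass when the third date was left out. The remaining 18 did not pass, among them Chuk, a kinase of the IKK complex and the most abundant of the list per kb, at 264 ± 5.31 and 269 ± 24.2. Slc15a3, a peptide transporter of endosomes, was the lowest at 0.813 normalized counts per kb.

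Of 15 tested genes of RIG-I-like receptor signalling, 1 rose with the block, Nlrx1 (median of the list 0.11). Nlrx1, a mitochondrial member of the NOD-like family, had 13.8, 1.48 and 17.5 normalized counts in R1 and 18.3, 12.8 and 31.4 in HN libraries. Its difference of 1.22 (block adjusted p = 0.0495) rested on the low R1 replicate 2 and was 0.30 without it, and the adjusted p was 1 without the block. Ddx58, which encodes RIG-I, was at 287 ± 153 in R1 and 217 ± 80.1 in HN mESCs (block adjusted p = 0.0731), and passed as lower with edgeR and the block. The highest level per kb was that of Pcbp2 (112), and the lowest that of Irf7 (0.439).

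Of 11 tested Toll-like receptors and adaptors, 2 rose with the block and 0 fell, and 9 further genes were too low to test (median of the tested 0.04). Irak1, a kinase downstream of most Toll-like receptors, was at 102, 132 and 51.2 in R1 and at 172, 254 and 132 in HN libraries. The lowest HN library stood only just above the highest R1 library, and HN was higher in every pair, by 0.74, 0.95 and 1.35. The difference of 1.01 had an adjusted p of 4.60e-06 with the block and 0.581 without it. Irak3, an inhibitor of that signalling, differed by 0.49 (block adjusted p = 0.0266, and 1 without it). Tlr4, the receptor for lipopolysaccharide, was the lowest of the list at 0.202 per kb.

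Of 9 tested genes of cytosolic DNA sensing, 1 rose and 2 fell with the block (median -0.07). Without the third date 0 passed as higher and 3 as lower, the third being Rnaseh2c (-0.61, adjusted p = 0.00654). That fit passed 11.8% of all tested genes. Aim2, an inflammasome receptor, was at 75.6, 82.1 and 55.3 in R1 and at 130, 84.3 and 130 in HN libraries (0.68, block adjusted p = 0.00959). Its HN libraries all exceeded R1, though by only 0.04 on the second date, and it did not pass without the third date. Rnaseh2a, the catalytic subunit of RNase H2, was at 357 ± 71.8 and 222 ± 18.9 (-0.66, adjusted p = 1.93e-04). Ddx41, an RNA helicase also described as a DNA sensor, was at 287 ± 37.1 and 209 ± 29.2 (-0.46, adjusted p = 0.00653). Without the block Aim2, Rnaseh2a and Ddx41 had adjusted p-values of 0.701, 0.511 and 0.812. Ifi204 was the lowest of the list at 0.249 per kb, and Ddx41 the highest at 92.4.

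The interferon transcripts listed, Ifnb1 and Ifng, were under the limit of 3 reads in each library of both lines. Ifnb1 had at most 1 read in a library, at 1.35 normalized counts in R1 replicate 3 and 0.709 in HN replicate 2 and 0 elsewhere. Of 15 tested genes of interferon receptors and JAK-STAT signalling, 0 passed with or without the block in limma, 0 had an unadjusted p under 0.05 without it, and the median was -0.12. Stat2 was at 50.5 ± 9.48 in R1 and 43.9 ± 11.1 in HN mESCs and Irf9 at 62.8 ± 13.8 and 70.9 ± 14.7, and both, named after their values were seen, encode transcription factors of interferon signalling. Socs3, an inhibitor of JAK signalling and the highest of the list per kb at 201, passed as lower with edgeR and the block and with limma and the block without the third date, while limma and the block over all dates gave an adjusted p of 0.0519. Irf2 was the lowest per kb (0.388).

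The list of interferon-stimulated genes had 32 members tested and 20 under the limit for testing. With the block 3 rose and 2 fell, and the median was -0.10. Ifitm3, a membrane protein that restricts virus entry, was at 42.6, 42.2 and 10.8 in R1 and at 54.8, 73.7 and 45.5 in HN libraries (1.04, block adjusted p = 0.00438). The low R1 replicate 3 set much of this value, which was 0.42 without it, and without the third date the block gave 0.57 and an adjusted p of 0.0916. Its relative Ifitm1 fell by 0.70 (adjusted p = 0.0033), and Ifitm2, the most abundant of the list at 1120 per kb, had means of 811 ± 340 and 658 ± 152 and an adjusted p of 0.121 with the block. Without the third date the block gave -0.39 for Ifitm2 and an adjusted p of 0.00179, and 2 genes of the list passed as higher and 3 as lower. These were 15.6% of the 32, against 11.8% of all tested genes. Psmb10, a subunit of the immunoproteasome, was at 61.7, 87.3 and 45.8 in R1 and lower in all HN libraries at 18.3, 39.7 and 36.8 (-1.04, adjusted p = 0.00216). B2m and Tapbp, which serve antigen presentation on MHC class I, differed by 0.67 (adjusted p = 5.18e-04) and 0.53 (adjusted p = 0.0428). Isg15, among the genes most strongly induced by interferon and named after its values were seen, was at 2.30 ± 1.66 in R1 and 1.13 ± 1.09 in HN mESCs, too low for the test, and Iigp1 was the lowest per kb (0.198).

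In the TRIM list, which holds the cluster of Trim34a, 0 of 7 tested genes passed with the block or without it in limma (median -0.11), and 0 had an unadjusted p under 0.05 without it. Trim6, 25.7 kb from the start of Trim34a, was the most abundant per kb (124) and measured 578 ± 196 in R1 and 641 ± 179 in HN mESCs, and Trim30b was the lowest (0.0837).

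Of 11 NF-kB factors and targets, 1 rose with the block and 0 fell (median 0.14). Relb, a subunit of NF-kB in its noncanonical branch, was at 42.6, 39.9 and 45.8 in R1 and at 103, 118 and 92.1 in HN libraries. All HN libraries were higher, and the means of 42.8 ± 2.95 and 104 ± 12.8 lay far apart for their spread. The difference of 1.26 (SE 0.23) had an adjusted p of 0.0564 without the block and 4.23e-06 with it. Icam1, an adhesion molecule and NF-kB target, was the most abundant of the list per kb (86.8), and Il6 the least (0.305).

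All 8 genes of FAT10 conjugation and turnover were tested, and 1 rose with the block, Sqstm1, the autophagy receptor p62 (656 ± 102 in R1 and 818 ± 120 in HN mESCs, 0.32, adjusted p = 0.0242, and 1 without the block). The enzymes that charge FAT10 did not pass, with Uba6 at 414 ± 18.3 and 373 ± 24.6 and Ube2z at 329 ± 39.3 and 343 ± 62.1, so their transcripts were present in both lines. The proteasome subunit Psmd4 was the most abundant of the list per kb (282), and Mad2l1 the least (36.4).

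**Figure D4:**
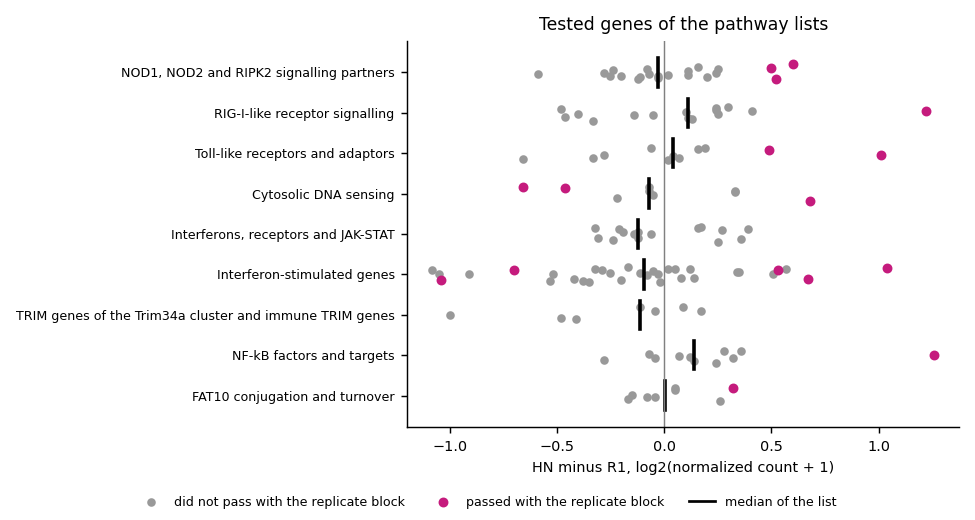
Each point is a tested gene of one of the 9 lists at its difference HN minus R1 in log2(normalized count + 1), with a black bar at the median of the list. Colored points passed limma with the replicate block, 12 on the right of 0 and 4 on the left, and the medians lie between -0.12 and 0.14.

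Genes near Nod1, Ubd and Trim34a were compared to see how far the difference extended along the chromosome. Within 500 kb of the start of Nod1, 8 other genes were tested, and their differences ran from -1.10 to 0.74 with a median of -0.31. With limma 0 passed without the block, and 1 of the 8 was higher with it, against 5.46% of all tested genes. This was Ggct at 20.3 kb (28.6 ± 12.4 in R1 and 45.8 ± 9.77 in HN mESCs, 0.74, block adjusted p = 0.0428). Gars, at 65.4 kb, was at 791 ± 129 and 735 ± 92.6.

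Near Ubd 11 genes were tested, from -0.46 to 1.29 with a median of 0.27. With limma 0 passed without the block, and 3 of the 11 were higher with it, against 5.46% of all tested genes. These were 2410137M14Rik (1.29, block adjusted p = 0.00148), H2-M5 (0.77, adjusted p = 0.00786) and Zfp57, a zinc finger protein that keeps imprints (0.49, adjusted p = 1.46e-04), at -212.7, -204.4 and -192.7 kb from its start. The tested genes nearest to Ubd, Olfr94 at 7.1 kb and H2-M3 at 76.3 kb, did not pass (0.34 and 0.50). Near Trim34a only Trim6 (0.17) and Trim12c (-0.41) were tested, and 0 passed with limma with or without the block.

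**Figure D5:**
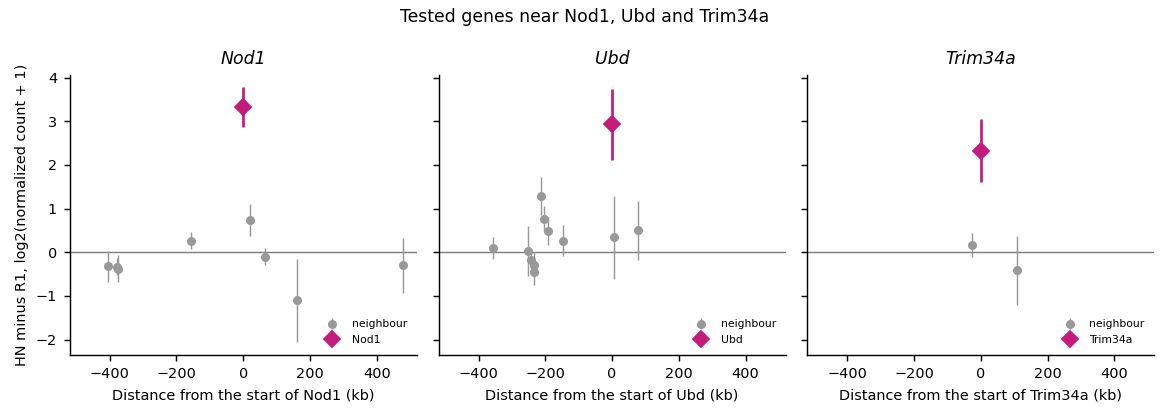
Tested genes within 500 kb of the starts of Nod1, Ubd and Trim34a are plotted by distance in kb against HN minus R1 in log2(normalized count + 1), with the standard error of the fit as bars and the named gene as a diamond. The neighbours lie between -1.10 and 1.29. The named genes, at 3.33, 2.93 and 2.33, were chosen for their difference and are not set against the neighbours.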

How the data were processed

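RNA-seq of R1 and HN mESCs (3 libraries each) was analysed from the table of normalized values per gene. According to the methods and labels, the authors aligned paired-end TruSeq reads to mm10 with STAR, removed duplicates with Picard, counted with HTSeq and divided by DESeq2 size factors. Versions and the annotation are not given in the sources used here. The deposited values are thus a normalized signal, and not raw counts. All values (100%, within a tolerance of 0.02 reads) stepped in units of 1 read, so whole reads were recovered. Unused sample columns numbered 0, and 27 rows with a date as name were not named.

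The lines were compared with limma 3.58.1 (R 4.3.3) on log2(normalized count + 1) for 14276 genes with a mean of at least 5. Passed means a Benjamini-Hochberg adjusted p under 0.05, and called adds an absolute log2 difference above 1. The members and lists were chosen with earlier results of these data known. Named genes were the members, from each list the genes that passed without the block, up to 3 called with it and the highest and lowest per kb of exon, tested genes within 500 kb of the 3 chosen members, and Htt. Other genes named among the lists (such as Ddx58, Ifnb1, Ifng, Uba6 and Ube2z), and the single markers, were named after their values were seen. Gene positions are from the GRCm38 annotation.

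Replicate numbers share a collection date in the labels. Deviations from the line means correlated at 0.25, 0.69 and 0.77 within dates and at -0.71 to 0.34 between dates, so the block with replicate number treats them as pairs. The labels give separate dates, but not whether cultures were otherwise independent, and p-values measure the spread between these libraries. Intervals of read ratios are exact and cover counting error only, since reads without molecular identifiers need not be independent molecules. A limit of 3 reads per library was used for genes at 0.

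Alternatives were the block, edgeR 4.0.16 and DESeq2 1.42.0 on recovered reads, pseudocounts of 0.1 and 10, no filter, a mean of at least 50, median centring and leaving out each library. Fits without the third date were added after seeing the data. The fits were also run on simulated counts that held differences between the lines and none between dates. That run does not cover the date differences of these libraries. An earlier search with longer forms of the response element and the kappa B site found fewer matches, and the shorter forms were chosen after it.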

Additional observations from a re-analysis of the deposited data

How the results depend on the processing

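Over all tested genes 17 were called higher and 18 lower in HN mESCs. The replicate block called 130 and 148, edgeR with the block 132 and 152, DESeq2 47 and 33, median centring 27 and 18, and the block without the third date 189 and 197. Leaving out 1 library gave 3 to 30 higher and 4 to 26 lower, with 4 and 4 without R1 replicate 1, 3 and 10 without HN replicate 1 and 30 higher without R1 replicate 3. The date test passed 6569 genes, DESeq2 2441, a mean of at least 50 gave 4090 of 7659, and leaving out 1 library 3292 (HN replicate 2) to 7545, with 3586 without R1 replicate 2. The cause was not tested. The difference was positive under every alternative run for Nod1, Ubd and Trim34a, and lowest with a pseudocount of 10 (2.55, 1.16 and 0.98). These 3 genes were chosen for being higher in HN mESCs and the alternatives reused the same libraries, so the sign is a description. The difference changed sign when 1 library was left out for Trim25 (-0.01 to 0.26), Tlr3 (-1.23 to 0.11), Irf3 (-0.12 to 0.27), Chuk (-0.04 to 0.08), Ifitm2 (-0.44 to 0.07), Psmd4 (-0.13 to 0.03) and Trim6 (-0.07 to 0.42). In limma the block (replicate numbers share a date) changed no call among the 6 tested members that were not chosen for their difference. A mean of at least 50 left no value for Nod2, Ripk2, Ubd, Trim34a and Tlr3, and few reads limit these genes and Ifih1.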
